A study of Drosophila melanogaster with 2 samples.

Results

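The transcripts of 9 genes that serve the building of sperm were measured by RNA sequencing in fly larvae. They are Mst84Da, Mst84Db, Mst84Dc, Mst84Dd, Mst87F, Mst98Ca, Mst98Cb, dj and betaTub85D, chosen by name from the 14001 genes measured. All 13 of their annotated transcripts, of 29992 matched transcripts, were found by FlyBase identifier. Both libraries of Drosophila melanogaster carried the HP1c f04929 allele on both chromosomes and were numbered as replicates of that one genotype. The labels give the tissue as larvae of the third instar, grown at one temperature and on one food. They name no sex, no dissected organ and no number of animals, and they do not say whether the replicates came from separate cultures. The spread between the libraries may therefore be technical. The other genotype in the series' design was not analysed here, so the values describe the mutant larvae and say nothing of what the allele changes.

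In the fly testis, spermatogonia divide into cysts of spermatocytes, which grow and transcribe for days before they enter meiosis. Most genes of the later spermatid are switched on at this spermatocyte stage, and many of the mRNAs are stored and translated only after meiosis. An element in the leader of the Mst mRNAs is known to hold them silent until then. The 7 Mst genes belong to the Mst(3)CGP family, named for repeats of cysteine, glycine and proline, and encode structural proteins of the sperm tail. The gene dj (don juan) encodes a basic protein of the sperm tail that lies along its mitochondrial derivatives. betaTub85D encodes the testis form of beta-tubulin, which is made from the spermatocyte stage and builds the meiotic spindle and the axoneme. A larval testis holds spermatogonia and spermatocytes, and these transcripts are taken here as the output of larval spermatocytes. Which cells the reads came from was not measured, and fewer testis cells and less RNA per cell cannot be told apart in whole-animal RNA.

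The libraries held 39745145 and 45177298 estimated reads in replicates 1 and 2. TPM divides reads by effective transcript length and scales each library to a fixed total, which allows levels to be compared between genes. Effective length is an estimate that falls below the annotated length, most in proportion for short transcripts. For Mst84Da-RA it was 213 and 206 of 358 bases in replicates 1 and 2, and for betaTub85D-RA 1695 and 1688 of 1841. Comparisons of short with long members rest on that estimate. Pseudogene entries of rRNA differed in share, with 12.1% of reads in replicate 1 and 2.55% in replicate 2. They took 7.80% and 1.42% of the fixed TPM total, which they share with the members. The mutated gene HP1c itself stood at 0.842 and 1.08 TPM, from 25 and 42 reads.

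All 9 genes lie on chromosome 3R, and their structure sets what the reads can separate. The 4 Mst84D genes fill 2956 bases (chr3R:7363307-7366262, BDGP6), with gaps of 480, 486 and 222 bases between neighbours. Mst84Dd, Mst84Dc and Mst84Db lie on the minus strand and Mst84Da on the plus strand, so Mst84Da and Mst84Db face away from each other across the shortest gap. Each has 2 exons and 1 intron of 52 to 61 bases. Their proteins are very small, with 63, 74, 55 and 72 residues for Mst84Da, Mst84Db, Mst84Dc and Mst84Dd. The annotated leaders of these 4 genes, the untranslated part before the start codon, run from 69 to 105 bases.

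The other members are single genes or a pair. Mst87F (chr3R:13827151-13828008, minus strand) encodes 56 residues behind a leader of 126 or 195 bases. Mst98Ca and Mst98Cb are intronless neighbours on the plus strand (chr3R:28291338-28293863) with 141 bases between them, and encode 334 and 265 residues. dj (chr3R:7059315-7060524, plus strand) has 3 annotated transcripts that differ around 1 intron. betaTub85D (chr3R:9408383-9410282, minus strand) has 2 exons and encodes 446 residues.

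**Figure D1:**
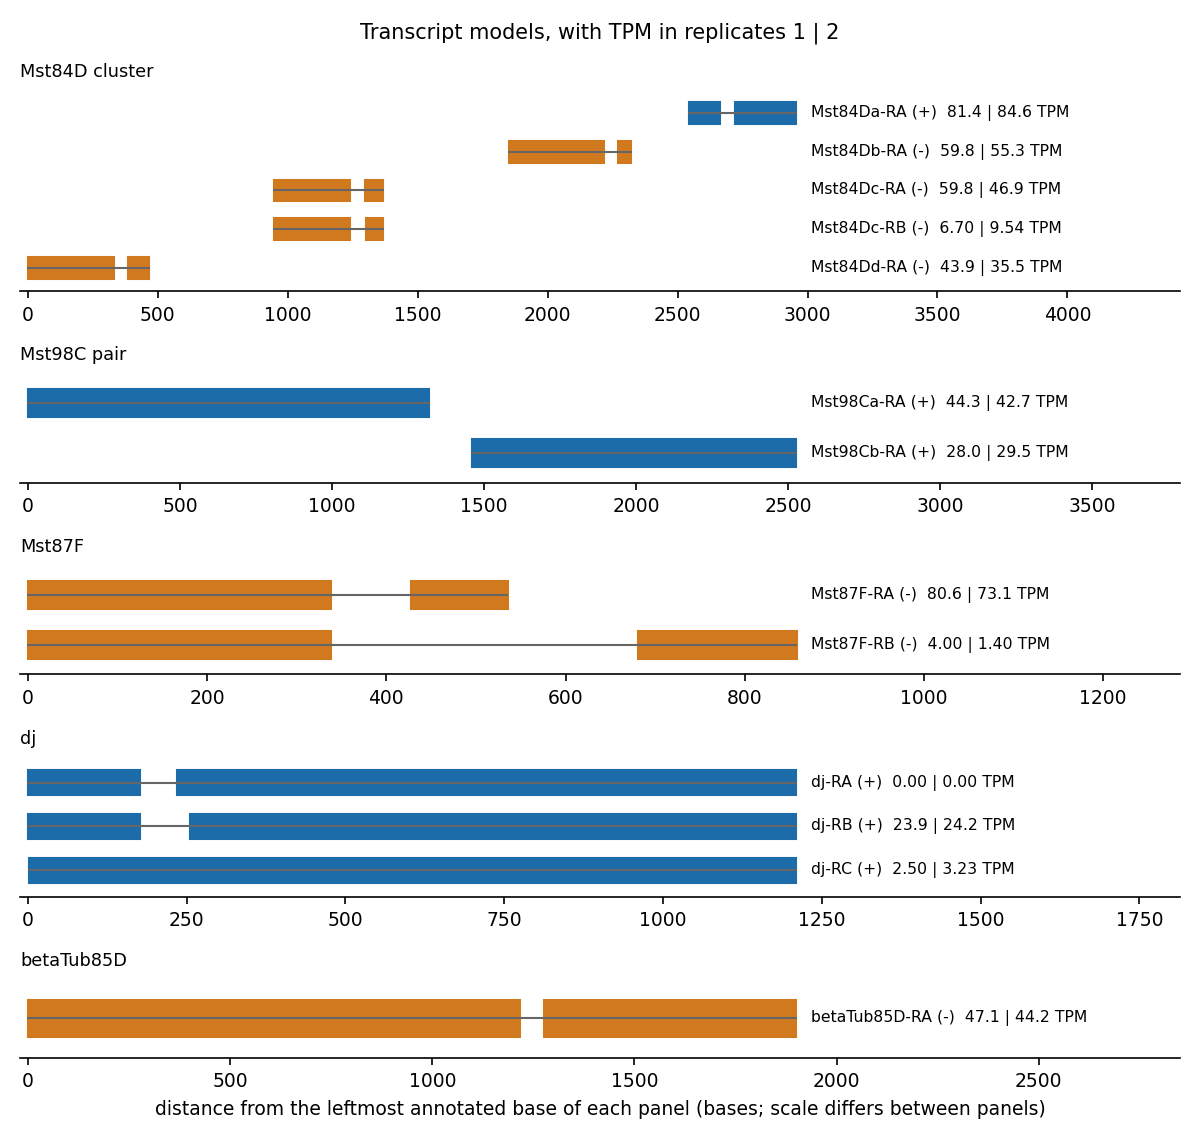
Transcript models of the 9 genes, drawn to scale within each panel as distance in bases from the leftmost annotated base. Boxes are exons and lines are introns, blue on the plus strand and orange on the minus strand, and the numbers to the right are the TPM of each transcript in replicates 1 and 2. One transcript carried most of the level of each gene that has several, for example dj-RB at 23.9 and 24.2 TPM against 2.501 and 3.23 TPM for dj-RC.

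All 9 genes were measured well above the depth limit in both libraries. On 1000 bases of effective length, 3 reads would have given 0.0849 and 0.0640 TPM in the respective libraries. The lowest member stood at 26.4 TPM. All 9 passed 1 TPM in both libraries, where 77.9% of all genes did. Among the 14001 genes they lay between the 76.0th and the 91.5th percentile of TPM in replicate 1 and between the 77.9th and the 92.0th in replicate 2. Their summed level was 466 ± 22.4 TPM (SD, n = 2), 482 TPM in replicate 1 and 450.2 TPM in replicate 2. Their share of the reads was 0.0240% (95% Wilson interval 0.0235% to 0.0244%) in replicate 1, and in replicate 2 it was 0.0263% (0.0259% to 0.0268%).

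The short Mst84D genes and Mst87F held most of this output per length. Mst84Da, whose product is one of the Cys-Gly-Pro proteins, stood at 81.4 TPM in replicate 1 (95% Poisson interval 75.04 to 88.0, 614 reads) and 84.6 TPM in replicate 2 (78.9 to 90.6, 819 reads). Mst87F, a gene in whose leader that control element was studied, stood at 84.6 TPM (79.2 to 90.3, 910.0 reads) and 74.5 TPM (70.0 to 79.2, 1030.0 reads). These were the highest levels among the 9 genes, and they changed places between the libraries. All intervals here cover the error of counting alone, and since no molecular identifiers are described, the reads may include copies of one molecule.

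Within the Mst84D cluster the genes did not have equal levels. Mst84Dc stood at 66.5 TPM (60.8 to 72.5, 512 reads) in replicate 1 and 56.5 TPM (51.9 to 61.4, 558 reads) in replicate 2. Mst84Db stood at 59.8 TPM (55.0 to 64.9, 571 reads) and 55.3 TPM (51.2 to 59.6, 681 reads). Mst84Dd, at the far end of the cluster from Mst84Da, stood at 43.9 TPM (39.8 to 48.3, 419 reads) and 35.5 TPM (32.2 to 39.0, 437 reads). Mst84Da was thus the highest and Mst84Dd the lowest of the 4 in each library. The ratio of their levels was 1.85 in replicate 1 and 2.39 in replicate 2, a mean of 2.12 ± 0.376 (SD, n = 2). Mst84Db and Mst84Dc were near each other, with a ratio of 0.939 ± 0.0555. The 4 genes together came to 242 ± 13.9 TPM, which is 51.8% ± 0.493 of the summed level of the 9 genes (SD, n = 2).

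Of the longer members of the Mst family, Mst98Cb stood below all the short ones per length, and Mst98Ca below all but Mst84Dd. Mst98Ca, which encodes an axoneme-associated sperm tail protein, stood at 44.3 TPM (42.3 to 46.4, 1839 reads) in replicate 1 and 42.7 TPM (41.0 to 44.5, 2337 reads) in replicate 2. Its neighbour Mst98Cb, which encodes a related protein, stood at 27.99 TPM (26.2 to 29.9, 911 reads) and 29.5 TPM (27.9 to 31.2, 1262 reads). The upstream gene of the pair was the higher in both libraries, at 1.58 and 1.45 times the level of the other (mean 1.52 ± 0.0952, SD, n = 2). The summed level of the pair was 72.3 and 72.2 TPM in the respective libraries. The 7 Mst genes made up 84.4% ± 0.478 of the summed level.

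The remaining members come from outside that family. dj stood at 26.4 TPM (24.7 to 28.1, 926 reads) in replicate 1 and 27.5 TPM (26.0 to 29.0, 1272 reads) in replicate 2. It had the lowest level of the 9 genes in both libraries. betaTub85D stood at 47.1 TPM (45.3 to 48.8, 2821 reads) and 44.2 TPM (42.7 to 45.7, 3498 reads). In reads betaTub85D was the first of the 9 genes and Mst84Dd the last in both libraries. Reads are not divided by length, and betaTub85D has the longest transcript, of 1841 bases.

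In the order of mean level, several neighbours could not be separated. The means ran from Mst84Da at 83.0 ± 2.30 TPM and Mst87F at 79.6 ± 7.16 TPM, through Mst84Dc at 61.5 ± 7.05 and Mst84Db at 57.5 ± 3.21 TPM. betaTub85D at 45.6 ± 2.03, Mst98Ca at 43.5 ± 1.13 and Mst84Dd at 39.7 ± 5.96 TPM followed. Mst98Cb at 28.7 ± 1.06 and dj at 26.9 ± 0.770 TPM came last (SD, n = 2 for each). The ranges over the libraries overlapped between Mst84Da and Mst87F, between Mst84Dc and Mst84Db, between betaTub85D and Mst98Ca and between Mst98Ca and Mst84Dd. They did not overlap at the other 4 steps, although the Poisson intervals of Mst98Cb and dj overlapped within each library. With 1 group of 2 libraries no test between levels was made.

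**Figure D2:**
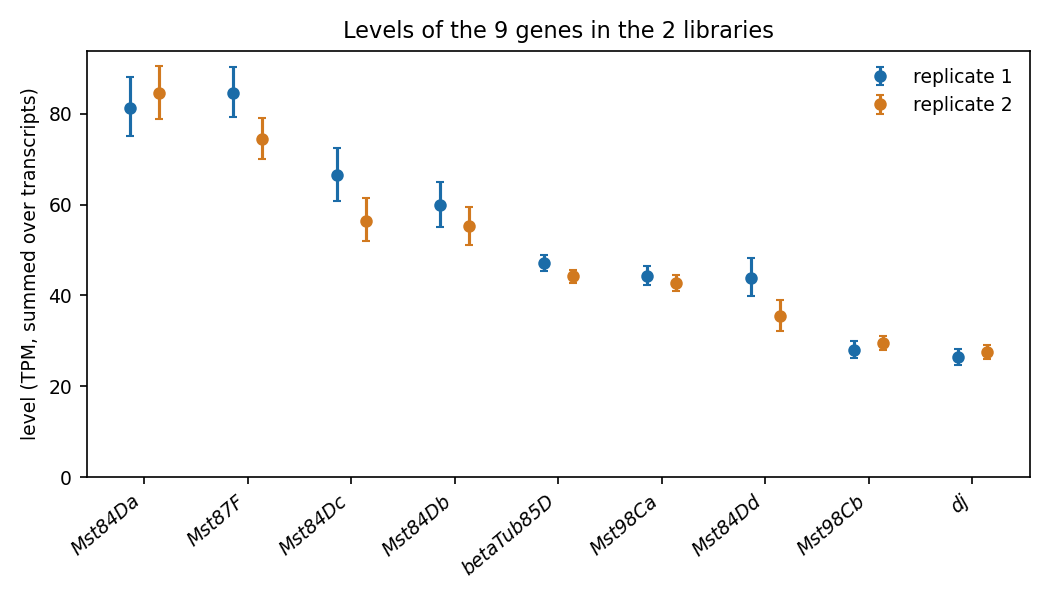
Level of each gene in TPM, summed over its transcripts, in replicate 1 (blue) and replicate 2 (orange), ordered by the mean of both; bars are 95% Poisson intervals of the reads. Mst84Da and Mst87F stand highest, between 74.5 and 84.6 TPM, and Mst98Cb and dj lowest, between 26.4 and 29.5 TPM.

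Where a gene has several transcripts, one of them held most of the level in both libraries. The transcripts of Mst87F differ in their first exon, which for RB starts 322 bases upstream of that for RA, and both encode the same 56 residues. Mst87F-RA held 80.6 and 73.1 TPM in replicates 1 and 2 and RB 3.999 and 1.40 TPM. RB thus took 4.73% of the gene's TPM in replicate 1 and 1.88% in replicate 2, from 52.3 and 23.8 estimated reads. In TMM-scaled reads the ratio of replicate 2 over replicate 1 was 0.357 for RB (95% Clopper-Pearson interval 0.210 to 0.589) and 0.906 (0.826 to 0.993) for RA. RB was the 1 of 12 member transcripts with enough reads that was called at least 2-fold apart, where 19.5% of all single transcripts were. Exons of Mst87F share 41 bases with the antisense gene lncRNA:CR43300, which was not analysed here.

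The transcripts of Mst84Dc and dj are told apart by even less sequence. Mst84Dc-RA and RB differ by 4 bases at the end of the first exon, within the leader, and encode the same 55 residues. RA held 59.8 and 46.9 TPM and RB 6.70 and 9.54 TPM, so RB took 10.1% and 16.9% of the gene's TPM in replicates 1 and 2. Their sum, with 512 and 558 whole reads, does not depend on how reads were shared between them.

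For dj, RB splices out 78 bases, RA splices out 58 and RC keeps the whole intron. The annotation gives the proteins of RA, RB and RC as 248, 218 and 187 residues. RB held 90.5% and 88.3% of the TPM of dj in replicates 1 and 2, and RC 9.48% and 11.7%. RC came from 94.0 and 159.7 estimated reads. RA was listed at 0 reads in both libraries, and 3 reads on it would have been 0.0843 and 0.0641 TPM. RA exceeds RB by 20 bases, so the split between them rests on the few reads that cross the junction or fall in those bases. The values of RC can also rest on reads within the kept intron. Poisson intervals do not cover the error of sharing reads between isoforms.

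The members were also examined for reads that might belong to other genes. Of the 6 members with 1 transcript, 4 had estimated reads that were not whole to within 0.01, namely Mst84Da, Mst98Ca, Mst98Cb and betaTub85D. The reads of Mst87F and dj, summed over their transcripts, were not whole either, at 909.953 and 926.168 in replicate 1. An estimate that is not whole arises where reads are shared with transcripts of other genes. Mst84Da shares 269 exonic bases with MstProx on the opposite strand. MstProx was listed at 3 and 8 reads in replicates 1 and 2, both whole, against 613.72 and 819 reads for Mst84Da. Which gene shares the reads of Mst84Da that were not whole in replicate 1 was not traced. No other measured gene has exons that overlap a member, and an annotated INE-1 element shares 31 bases with dj. Whether the libraries keep strand is not stated in the labels, so reads of such antisense pairs may not be separable.

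The genes beside the members had lower levels than the members in most cases. The cluster of dj continues with djl (don juan like), 242 bases downstream on the same strand, which stood at 10.04 and 12.7 TPM in replicates 1 and 2. The level of dj was 2.63 and 2.17 times that of djl. CG1979, on the other side of dj, stood at 7.48 ± 0.396 TPM. UQCR-14L, 184 bases downstream of Mst98Cb, stood at 6.43 ± 0.373 TPM. Beside betaTub85D, Task7 (46 bases away) and CG44261 (213 bases away) stood at 1.52 ± 0.150 and 3.61 ± 1.24 TPM. Outside the Mst84D cluster, CG17944 next to Mst84Dd stood at 3.80 ± 0.267 TPM and CG42650, which lies 25150 bases from Mst84Da, at 2.56 and 2.68 TPM. CG34437, the gene 6612 bases before Mst98Ca, stood at 12.4 and 16.5 TPM. The highest of these neighbours was tal-1A, 12502 bases from Mst87F, at 152 and 48.9 TPM, while Nsf2 on the other side of Mst87F stood at 17.4 ± 0.0212 TPM.

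betaTub85D was set beside the other beta-tubulins, which share its fold. The ubiquitous betaTub56D stood at 879 and 737 TPM in replicates 1 and 2. betaTub60D, known from muscle and other differentiating cells, stood at 222 and 154 TPM. betaTub97EF stood at 16.1 and 14.2 TPM and betaTub65B at 3.29 and 3.34 TPM. betaTub85D was thus the third highest of the 5 genes in both libraries, and betaTub56D stood at 18.7 and 16.7 times its level. It made up 4.03% of the beta-tubulin TPM in replicate 1 and 4.64% in replicate 2, a mean of 4.33% ± 0.427 (SD, n = 2). Reads in stretches that beta-tubulin mRNAs share can be assigned to either gene, which makes the betaTub85D value uncertain to that extent. Of the alpha-tubulins, alphaTub85E, which is made in the testis among other tissues, stood at 8.12 and 8.99 TPM and the ubiquitous alphaTub84B at 1165 and 883 TPM.

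The libraries were then compared to measure how far the members vary between replicates. All 9 genes had enough reads, and 0 of 9 were called at least 2-fold apart, where 5.42% of the 12206 tested genes were. A call needed a mean of 10 reads, a ratio of 2 and a 95% interval that left out 1, on reads scaled by the TMM factors of edgeR. At 1.5-fold the count was again 0 of 9, against 12.2% of all genes. The 4 members over 1000 bases lay between -0.06 and 0.10 on the log2 scale, or between 0.13 and 0.29 when scaled by library size alone. The ratio of replicate 2 over replicate 1 was 1.07 (0.982 to 1.17) for Mst98Cb, 1.06 (0.974 to 1.16) for dj, 0.982 (0.923 to 1.04) for Mst98Ca and 0.958 (0.911 to 1.01) for betaTub85D.

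The short members had a wider range of ratios. Mst84Da had a ratio of 1.03 (0.927 to 1.15) and Mst84Db of 0.921 (0.823 to 1.03). For Mst87F at 0.874 (0.799 to 0.957), Mst84Dc at 0.842 (0.745 to 0.951) and Mst84Dd at 0.806 (0.703 to 0.923) the interval left out 1, at differences far below 2-fold. With library size alone as the scaling these 3 genes had log2 ratios of -0.01, -0.06 and -0.12, and the 9 members ran from -0.12 to 0.29. These intervals cover counting error in this pair of libraries and do not test a condition. On the log2 scale the Mst84D genes ran from -0.31 to 0.04. The 372 tested genes with no transcript over 500 bases had quartiles of -0.30 and 0.27, and all tested genes quartiles of -0.19 and 0.19. The median over the 9 members was -0.06, with 3 of 9 above 0, beside 0.02 and 52.9% above 0 for all tested genes. Scaled by library size alone, the median of all genes moved to 0.21 and that of the members to 0.13, with 6 of 9 members above 0.

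**Figure D3:**
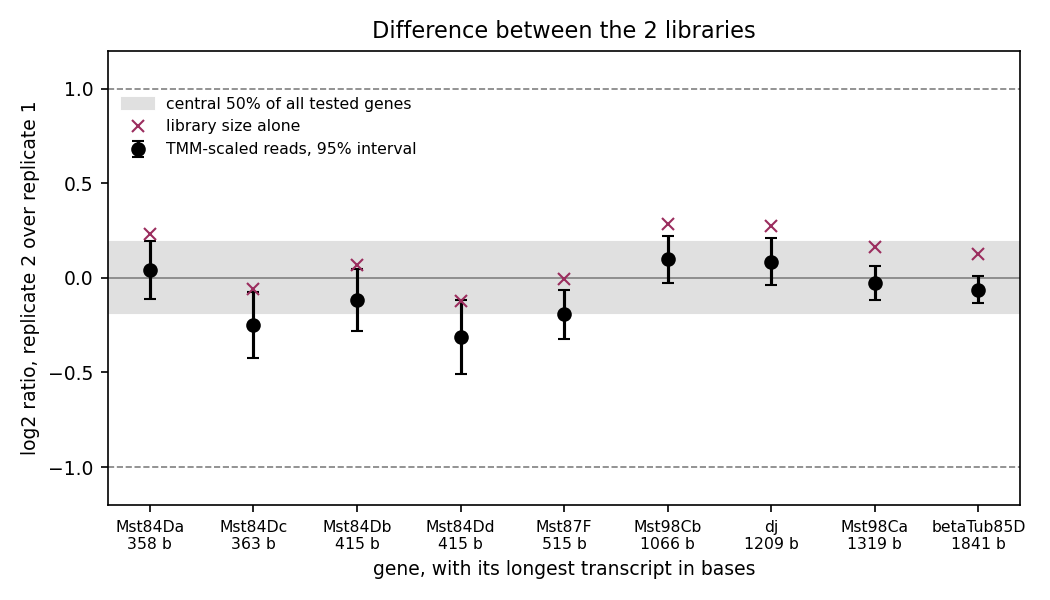
Log2 ratio of replicate 2 over replicate 1 for each gene, ordered by its longest transcript in bases; points use TMM-scaled reads with 95% Clopper-Pearson intervals, crosses use library size alone, the grey band is the central 50% of the 12206 tested genes and the dashed lines mark 2-fold. All 9 points lie between -0.31 and 0.10, inside the 2-fold lines under either scaling.

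The members were also read beside other genes of the male germline. Among 26 other genes for spermatid proteins, all 26 passed 1 TPM in both libraries, as 77.9% of all genes did, with a median of 28.1 TPM and a highest value of 66.6 ± 0.539 TPM for S-Lap1, which encodes a sperm leucyl aminopeptidase. Next were Mst77F, a protein of the condensing sperm nucleus, at 57.5 ± 1.44 TPM and ocn, a testis gene of the janus family, at 56.7 ± 2.55 TPM. At the low end, Mst36Fa and Mst36Fb stood at 3.74 ± 0.0534 and 4.82 ± 0.416 TPM. The median of the 9 members was 45.6 TPM. Between the libraries 0 of the 26 genes were called 2-fold apart, against 5.42% of all tested genes. Their log2 ratios had a median of 0.09 with 22 of 26 above 0, beside 0.02 and 52.9% for all tested genes. These values depend on the scaling, and with library size alone they became 0.28 with 26 of 26 above 0, beside 0.21 and 75.2% for all.

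Genes of the cup and comet group, known for transcription after meiosis, stood lower. The list of 20 held oys in error, a lipid acyltransferase gene that is not of this group. It stood at 119 and 132 TPM, the highest level of the list. Of the other 19 genes, 17 passed 1 TPM in both libraries, with a median of 4.52 TPM. The highest were w-cup at 27.0 ± 1.82 TPM and soti, a regulator of caspase activity in spermatid individualisation, at 23.4 ± 0.338 TPM. At the low end s-cup stood at 0.180 and 0.231 TPM, and hubl was listed at 0 reads in both libraries. Of these 19 genes 1, w-cup, lay above dj, the lowest member, in mean level, at 27.0 against 26.9 TPM. Their order changed between the libraries, with w-cup at 25.7 and 28.3 TPM and dj at 26.4 and 27.5 TPM in replicates 1 and 2.

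The regulators known to switch on spermatocyte transcription stood below all 9 members in TPM. The tMAC complex is a testis-specific activator, and 6 of its 7 listed genes passed 1 TPM in both libraries, with a median of 2.80 TPM. Its genes achi, wuc and vis stood at 9.93 ± 0.716, 5.09 ± 1.14 and 4.66 ± 0.245 TPM, while aly stood at 1.84 ± 0.416 and comr at 0.632 ± 0.157 TPM. Of the 5 testis TAFs, paralogs of general transcription factor subunits, 4 passed 1 TPM in both libraries. Taf12L led them at 13.4 ± 0.0974 TPM, and can was lowest at 1.07 and 0.929 TPM. The level of betaTub85D was 30.5 and 20.7 times that of aly in replicates 1 and 2, and 44.1 and 47.6 times that of can. For entry into meiosis, bol stood at 25.5 ± 1.77 TPM and twe, the meiotic Cdc25 phosphatase, at 5.94 ± 0.706 TPM.

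The listed markers of earlier germ cells, the listed Y-linked genes and the listed markers of other sexual tissues were low or at 0. Of the 4 early germline genes measured, vas and bgcn stood at 2.05 ± 0.0485 and 1.76 ± 0.0487 TPM. bam, needed for the switch from spermatogonia to spermatocytes, stood at 0.267 and 0.309 TPM, and zpg, a germline gap junction gene, at 0.151 and 0.262 TPM. Across these 6 germline lists, 58 of 64 genes (90.6%) passed 1 TPM in both libraries, or 57 of 63 without oys, beside 77.9% of all genes. Of the 63 with enough reads 0 were called 2-fold apart, beside 5.42% of all tested genes. A list of 11 Y-linked genes, drawn up for male fertility, was left out of those counts. Of these 11 genes 1, FDY, passed 1 TPM in both libraries, at 2.22 ± 0.108 TPM. The list had a median of 0.241 TPM, summed to 7.20 and 6.25 TPM in replicates 1 and 2, and held 0 genes above the lowest member in mean level.

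Most listed transcripts of the adult male accessory gland were nearly absent. Of the 10 genes listed for it, 7 had 0 reads in both libraries, among them SP, the sex peptide gene, and the summed level was 0.279 and 0.362 TPM in replicates 1 and 2. Acp36DE, with 13 and 39 reads, was the highest of them, at 0.136 and 0.309 TPM. Acp36DE was the 1 gene of the list with enough reads for a ratio. Its ratio was 2.32 and it was called at least 2-fold higher in replicate 2, where 5.42% of all tested genes were called in either direction. Genes of the same naming outside the 10 listed ones were not all so low. Acp24A4 stood at 1.13 and 2.54 TPM and Acp95EF at 2.47 and 2.38 TPM, while Acp33A and Acp98AB had 0 reads in both libraries. The 6 genes of yolk, chorion and vitelline membrane, made in adult females, summed to 0.983 and 0.743 TPM, with Yp3 highest at 0.527 and 0.335 TPM.

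**Figure D4:**
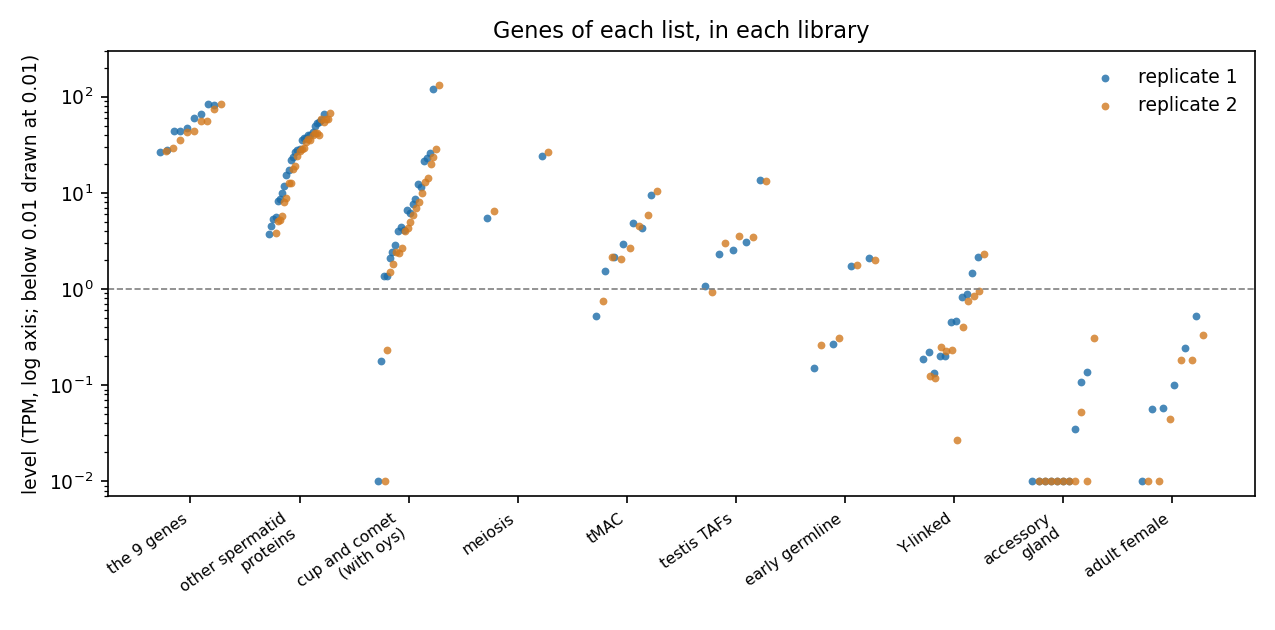
Level in TPM on a log axis of each gene of 10 lists, in replicate 1 (blue) and replicate 2 (orange), with the genes of a list spread sideways by mean level, values under 0.01 TPM drawn at 0.01 and the dashed line at 1 TPM. The 9 genes and most other spermatid protein genes lie above 5 TPM, the tMAC and testis TAF genes between 0.522 and 13.5 TPM, and the accessory gland and adult female genes under 1 TPM.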

How the data were processed

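Trizol was used to extract total RNA, per the labels' protocols, and libraries followed Illumina protocols. The authors deposited TPM and estimated counts of 30119 FlyBase transcripts for each library. The columns are named as salmon names them, but which program, genome build or annotation made them is not stated in the labels. Tools listed without a role in the submitters' processing notes are STAR 2.5.2, HTSeq 0.6.1, Picard, FastQC and bcl2fastq 2.18.0.12. Identifiers were matched to Ensembl release 115 on BDGP6, where 99.8% of the 29992 matched transcripts had the annotated length. The 127 others, with 0.0981% and 0.110% of reads, were dropped. Both quantities were then added up per gene.

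For ratios, estimated counts were rounded and scaled by TMM (edgeR 4.0.16, R 4.3.3), and log2 ratios had 0.5 reads added. With 1 group of 2 libraries no p-value was computed. By rule the text names all members and their transcripts, genes that overlap or flank them, all beta-tubulins, and at most the 3 highest and 2 lowest genes of any other list. HP1c, alphaTub85E, SP, Acp24A4, Acp95EF, Acp33A and Acp98AB were named in addition, after their values were seen. Members and lists were chosen with earlier results of these data known, so no list is independent support. ProtA and ProtB were matched by synonym, and nos matched no single gene. With 2 libraries, likeness of pattern to other genes was not computed. Alternatives were each library alone, CPM, TPM without rRNA entries, other scalings (DESeq2 1.42.0 size factors among them), filters and thresholds, and single transcripts.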

Additional observations from a re-analysis of the deposited data

How the results depend on the processing

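Depth limits the detected minor isoforms, which rest on 23.8 to 159.7 estimated reads in a library. No paired analysis was possible because all samples belong to 1 group, and a ratio between the libraries has no value without either of them. With each library alone the summed member level ran from 450.2 to 482 TPM, the betaTub85D share from 4.03% to 4.64% and the germline list genes detected from 58 to 59. With rRNA entries left out and TPM rescaled, the mean summed level was 489.7 TPM. Mst84Da, Mst98Cb and dj, higher in replicate 2 in TPM, then stood lower there, with log2 TPM ratios of -0.04, -0.02 and -0.04. The other members were lower in replicate 2 either way. In CPM, which is not divided by length, the mean summed level was 252. In CPM betaTub85D stood highest at 74.3 and Mst84Dd lowest at 10.1, so the order of the members depends on the division by length. Detection at 5 TPM gave 38 germline list genes in place of 58. The count of members at least 2-fold apart was 0 of 9 under library size alone, DESeq2 size factors, no filter on reads, a mean of at least 100 reads and 1.5-fold, and 1 of 12 for single transcripts (Mst87F-RB). The 662 genes at least 2-fold apart became 4621 for single transcripts, 383 with a filter of 100 mean reads, which tests fewer genes, and 1490 at 1.5-fold. They split into 501 higher in replicate 1 and 161 higher in replicate 2, and into 394 and 276 with library size alone. The median log2 ratio of the members, -0.06, became 0.13 with library size alone, which moved the median of all genes from 0.02 to 0.21. Applying these settings to all genes, rescaling the other spermatid genes, and leaving oys out were chosen after seeing the data.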
